A study of Mus musculus with 24 samples.

Results

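Chaperone and protein folding genes were followed in lung and skin of irradiated mice. The set held every gene whose single symbol in the platform annotation began with Hsp followed by a, b, d, e, h or a digit, or with Dnaj, Cct followed by a digit, Pdia, Fkbp, Bag, or Ppi followed by a to h. This gave 57 genes, read by 65 probes, of 8750 features on the array. The rule uses symbols only, though the set was proposed with earlier results of these data known. The set comprised 19 J proteins, 10 FKBP immunophilins, 9 HSP70 and HSP110 proteins, 6 subunits of the chaperonin CCT, 3 BAG proteins, 3 cyclophilins, 2 HSP90 proteins, 2 entries of the HSP60 and HSP10 pair, 2 protein disulfide isomerases and Hspb11. Hspb11 carries a small heat shock protein symbol but is known as a component of intraflagellar transport, and the HSP60 entry was named in the annotation as Hspd1-ps3, a pseudogene of Hspd1.

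The arrays held RNA of female mice, 12 to 13 weeks old, of A/J, C57BL/6J or C3H/HeMs background, with 1 array per strain in each group. Wherever 3 values of a group are given, A/J comes first, C57BL/6J next and C3H/HeMs last. Lung was taken from unirradiated mice and at 1 h, 12 h or 72 h after 10 Gy of gamma rays to the thorax. Skin, with all its layers, was taken from unirradiated mice and at the same times after 30 Gy to the hind leg. Each of the 24 arrays compared a pool of 3 mice with a common reference made from commercial RNA of 10 organs. The 3 replicates of a group were thus pools of 3 different strains, and p-values measure the spread between these pools, not between single mice. The mice carried no transgene or deletion named in the labels.

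Chaperones bind unfolded proteins and help them reach or keep their native shape. HSP70 proteins work with J proteins, which deliver clients and stimulate their ATPase, and with BAG and HSP110 proteins, which release the nucleotide, while HSP90, the chaperonins HSP60 and CCT, and the isomerases act on particular clients or later steps. Heat shock factor 1 drives some of these genes, cytosolic ones among them, through inverted GAA repeats in their promoters. The unfolded protein response drives genes of the endoplasmic reticulum through a separate element. In skin and lung these genes serve ordinary protein synthesis, and the inducible ones are known for their response to heat and oxidants.

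Promoter stretches of 4 members are given because they carry the letters of the 2 elements just named and belong to genes whose values are set side by side below. They come from the RefSeq promoter table of GRCm38.p6, in which 48 of the 57 members had an entry, and capitals mark the matched letters. The Hspa1a stretch holds GAANNTTC, the core of a heat shock element, and lies at chr17:34972233-34972280 on the minus strand. The other 3 hold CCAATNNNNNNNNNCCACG, the endoplasmic reticulum stress element, at chr2:34772005-34772063 on the plus strand, chr10:86705513-86705676 on the minus strand and chr14:118937807-118937865 on the plus strand.
Hspa1a: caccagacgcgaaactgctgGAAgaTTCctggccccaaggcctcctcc
Hspa5: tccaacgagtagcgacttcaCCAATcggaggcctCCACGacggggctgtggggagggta
Hsp90b1: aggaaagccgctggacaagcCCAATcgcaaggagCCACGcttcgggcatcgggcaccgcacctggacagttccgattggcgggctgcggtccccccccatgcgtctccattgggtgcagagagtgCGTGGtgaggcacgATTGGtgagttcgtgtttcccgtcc
Dnajc3: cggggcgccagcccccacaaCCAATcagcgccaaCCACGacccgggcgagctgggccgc
Hspa1a encodes the stress-inducible cytosolic HSP70, Hspa5 the HSP70 of the endoplasmic reticulum (BiP), Hsp90b1 its HSP90 (GRP94) and Dnajc3 a J protein of the same compartment. Both strands of the 250 bases before each start were searched, and the Hsp90b1 stretch holds the element in both orientations, 1 copy in each. The endoplasmic reticulum stress element was found in 3 of 48 members, these 3, and in 0.13% of 27025 genes. The core of the heat shock element was searched as GAANNTTC and as TTCNNGAA, which can overlap, and either order was found in 11 of 48 members and in 14.55% of all genes. An element of 3 alternating units was found in 2 of 48 members, Dnajb6 and Hspe1, and in 0.51% of all genes. The Hspa1a stretch does not hold it. Such a match is a description of letters in a window and not a measured binding site.

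Values are log2 ratios of tissue over reference, centred on the median of each array, and a change is the difference from the control of the same strain. Lung RNA carried one dye and skin RNA the other, so tissue and dye cannot be told apart in any comparison of levels between tissues. Markers matched the labelled tissues. The 4 lung epithelium markers had medians of 2.12 to 3.32 in lung arrays and -5.47 to -3.92 in skin arrays, and the 4 epidermal markers had 4.34 to 6.38 in skin and -3.07 to -1.45 in lung. In lung the A/J and C3H/HeMs arrays of 12 h and 72 h lay away from the remaining 8 along a first principal component with 39.9% of the variance, and 115 to 674 of their probes had a ratio of exactly 0, against 1 to 23 in the other lung arrays. Lung values of these times are therefore also given with the 4 arrays as a block, a term of the fit, under which the comparison with control rests mainly on C57BL/6J. No value of a member was at the limit of the deposited scale. A ratio of exactly 0 was deposited for 4 values of members with 1 probe each, which were Hspa2 in the C3H/HeMs skin control, Pdia4 in the C57BL/6J skin control, and Dnaja4 and Dnajc30 in the C3H/HeMs lung array of 72 h. Several probes existed for 7 members, and the probes of Cct4, Dnajc1, Hspa1a and Hspa4l differed in level by more than 1 log2 unit in at least 1 tissue.

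In unirradiated mice, 32 of the 57 chaperone genes had higher ratios to the reference in skin than in lung. The difference (skin minus lung) passed an adjusted p of 0.05 in limma for these 32 and for 0 members in the other direction. Among all features 35.6% were higher in skin and 22.5% lower by the same rule, and the median difference was 0.67 for the members and 0.24 for all features. CCT, the ring-shaped chaperonin that folds actin and tubulin, was higher in skin for 6 of 6 measured subunits, with a median difference of 1.30. Cct6a had log2 ratios of -0.91, -0.74 and -0.63 in lung and 0.73, 0.93 and 0.86 in skin, a difference of 1.60 (SE 0.16, adjusted p = 5.71e-07). Cct5 differed by 1.60, and Cct4, the smallest of the 6, by 0.55. The 2 probes of Cct4 disagreed in direction. Their control means were -1.18 in lung and 0.36 in skin for 1 probe, and 0.37 and -0.06 for the other.

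HSP70 and HSP110 genes followed the same direction, with 6 of 9 higher in skin. Hspa4, an HSP110 protein, differed by 1.68 (SE 0.17, adjusted p = 6.31e-07), Hspa14, a ribosome-associated HSP70, by 1.49, and Hspa1a by 1.61 (adjusted p = 0.000753). The 2 probes of Hspa1a shared the direction but not the size, with control means of -0.90 and -2.00 in lung and -0.40 and 0.72 in skin. Hspa2, the HSP70 needed for spermatogenesis, showed the largest difference, 2.35 (SE 0.35), with -3.08, -3.28 and -3.65 in lung and -1.85, -1.26 and 0.13 in skin. Its skin values spread widely, and the C3H/HeMs control, the highest, is one of the ratios of exactly 0. With such ratios taken as missing the Hspa2 difference was 1.78 (SE 0.27), close to those of Dnajb1 and Hspa4. The mitochondrial pair Hspe1 and Hspd1-ps3 was 1.44 and 1.06 higher in skin and mitochondrial Hspa9 1.21 higher, and Hspa5 0.90 higher. The HSP90 genes were not called, Hsp90aa1 with 0.20 and Hsp90b1 with 0.55.

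Among co-chaperones, Dnajb1, the main cytosolic partner of Hspa1a, had -0.81, -0.61 and -0.05 in lung and 1.32, 1.08 and 1.43 in skin, a difference of 1.77 (SE 0.21, adjusted p = 3.57e-06). The groups did not overlap. J proteins were higher in skin in 8 of 19 cases, against 35.6% of all features. They included Dnajc14 (1.26), Dnajc30 (1.37), ribosome-associated Dnajc2 (1.35), Dnajc21 (1.37) and the mitochondrial import factor Dnajc19 (1.20). Bag6, a quality control factor for membrane proteins, had the smallest adjusted p of the set, 2.97e-07, at a difference of 1.33 (SE 0.13). Bag1 and Bag3 were 0.67 and 0.47 higher in skin. FKBP genes were called in 4 of 10 cases, close to the share of all features. These were Fkbp3 (1.62), Fkbp5 (1.04), Fkbp8 (0.88) and Fkbp9 (0.75). Pdia4 and the nuclear cyclophilin Ppig were 0.80 and 0.80 higher. The remaining members called were Cct3, Cct7, Cct8, Dnaja1, Dnajb3 and Hspb11, with 1.33, 0.91, 1.27, 0.48, 1.43 and 1.22.

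**Figure D1:**
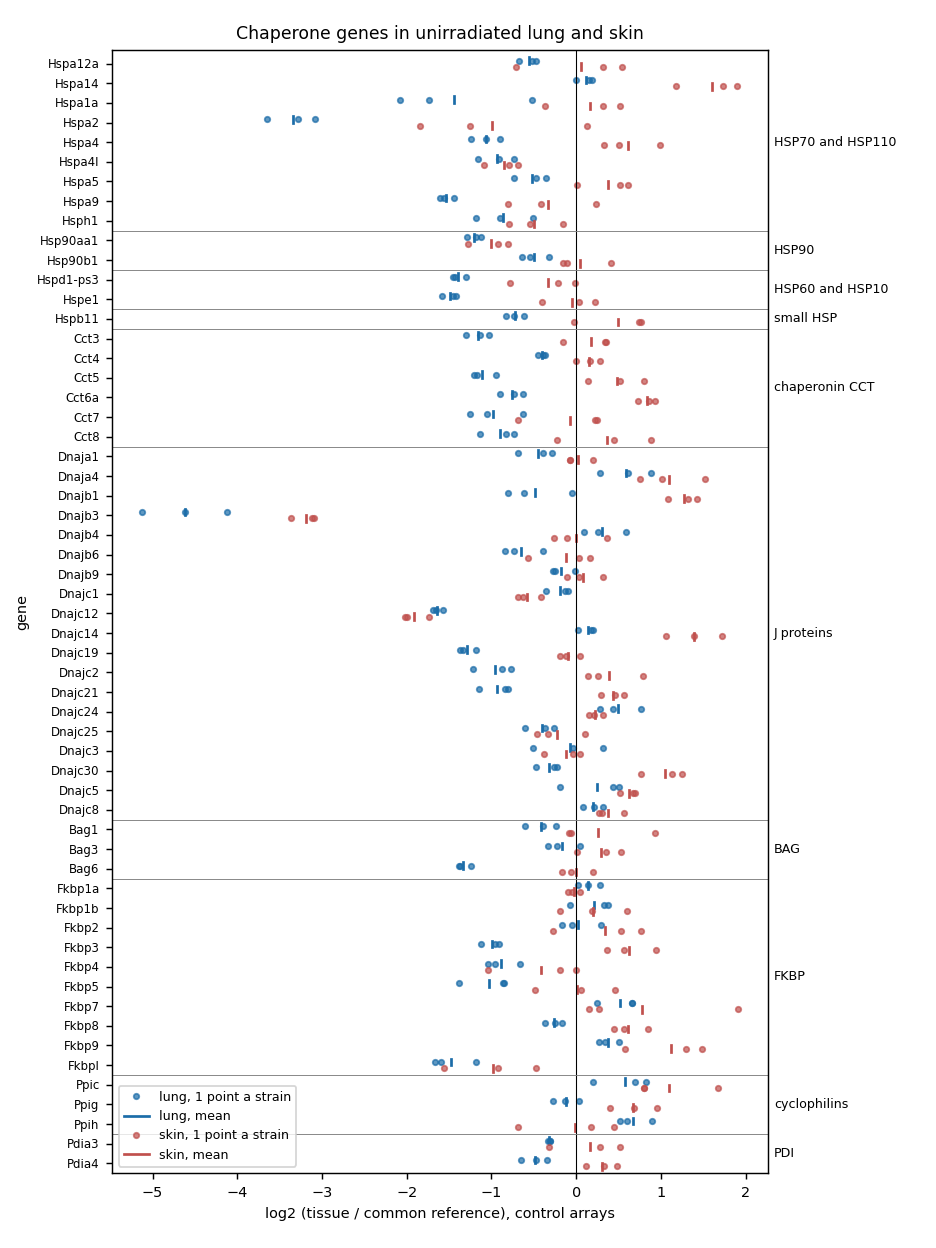
Log2 ratio of tissue over reference (horizontal axis) of the 57 chaperone genes, by family, in the 3 unirradiated lung arrays (blue) and 3 unirradiated skin arrays (red), 1 point per strain and a short vertical bar at each mean. All 6 CCT subunits lie further right in skin, Cct4 as the mean of 2 probes that disagree in direction, and Dnajb3 and Hspa2 lie far left in lung.

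Ratios against the reference set the order of the members within a tissue but do not rank their absolute abundance. Dnajb3, a J protein known from testis, was lowest in both tissues, at -4.62 ± 0.50 (SD, n = 3) in lung and -3.20 ± 0.15 in skin, and Hspa2 followed in lung at -3.34 ± 0.29. For comparison, 3 spermatogenic markers had medians of -6.84 to -6.18 over all arrays. In lung the next were Dnajc12 (-1.64 ± 0.06), Hspa9 (-1.54 ± 0.08), Hspe1 (-1.49 ± 0.09), Fkbpl (-1.48 ± 0.26), Hspa1a (-1.45 ± 0.82) and Hspd1-ps3 (-1.40 ± 0.08), with values that overlap between neighbours. In skin they were Dnajc12 (-1.92 ± 0.15), Hsp90aa1 (-1.003 ± 0.25), Hspa2 (-0.99 ± 1.02), Fkbpl (-0.99 ± 0.55), Hspa4l (-0.85 ± 0.21), Dnajc1 (-0.58 ± 0.15) and Hsph1 (-0.50 ± 0.32).

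At the upper end in lung lay Ppih (0.67 ± 0.20), a cyclophilin of the spliceosome, then Dnaja4 (0.59 ± 0.30), Ppic (0.57 ± 0.33), Fkbp7 (0.52 ± 0.24), Dnajc24 (0.49 ± 0.25), Fkbp9 (0.37 ± 0.12), Dnajb4 (0.31 ± 0.25) and Dnajc5 (0.25 ± 0.39). Values of neighbours in this order overlap over the strains. In skin Hspa14 was highest (1.60 ± 0.37), followed by Dnajc14 (1.39 ± 0.33), Dnajb1 (1.28 ± 0.18), Fkbp9 (1.12 ± 0.48), Dnaja4 (1.10 ± 0.39), Ppic (1.09 ± 0.50), Dnajc30 (1.05 ± 0.25) and Cct6a (0.84 ± 0.10). Fkbp9, Fkbp7 and Ppic are isomerases of the secretory pathway. Fkbp9, Ppic and Dnaja4 were in the upper 8 of both tissues.

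Irradiation moved no chaperone gene past an adjusted p of 0.05 in limma in either tissue at any time. By that rule 0 of 57 members were called in each of the 6 comparisons, against 0.0114% of all features in lung at 1 h, 0.114% at each later time, and 0% in skin throughout. A change of at least 1.5-fold in 1 direction in all 3 strains was seen in 0 members in each comparison, against 0.229%, 0.88% and 1.66% of all features at the successive times in lung, or 0.823%, 1.42% and 1.5% in skin. Under quantile scaling 1 member, Cct7, met this rule in skin at 72 h, with -0.81, -0.68 and -1.30 by strain. Differences below therefore rest on their size, on agreement of the 3 strains and on counts at an unadjusted p under 0.05, each beside the share over all features. The 3 times of a tissue share the same 3 control arrays. On simulated data the fits recovered 65% to 70% of 2-fold changes in lung and 26% to 34% in skin. A member without a call may therefore still have changed.

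Without adjustment, members above their control at a p under 0.05 numbered 0, 2 and 3 at the successive times in lung, against 1.27%, 6.98% and 6.72% of all features. Members below control numbered 1, 0 and 0, against 0.971%, 5.07% and 5.68%. With the 4 arrays lying apart as a block, 0, 0 and 0 members lay above control in lung and 2, 2 and 3 below. Of all features 2.15%, 3.33% and 2.43% then lay above and 1.73%, 2.22% and 2.64% below. The members below were Hspa12a and Hsph1 at 1 h, Dnajc3 and Fkbp7 at 12 h, and Dnajc3, Fkbp5 and Fkbp7 at 72 h. In skin 0, 0 and 1 member lay above, against 1.87%, 2.99% and 3.95%, and 1, 2 and 13 lay below, against 2.49%, 3.71% and 3.44%. Only the 13 of 57 in skin at 72 h made a clearly larger share than among all features. The direction was shared by all 3 strains upward in 10, 7 and 15 members in lung (14.6%, 16.8% and 18.4% of all features) and downward in 12, 5 and 5 (14.9%, 10.7% and 13.6%). In skin it was upward in 7, 5 and 2 (11%, 10.3% and 14.7%) and downward in 11, 14 and 23 (18.2%, 15.7% and 15.4%). The median change of the members in lung was -0.05, 0.11 and 0.13 over time. In skin it was 0.00, -0.06 and -0.22, and that of all features at 72 h in skin was -0.01.

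**Figure D2:**
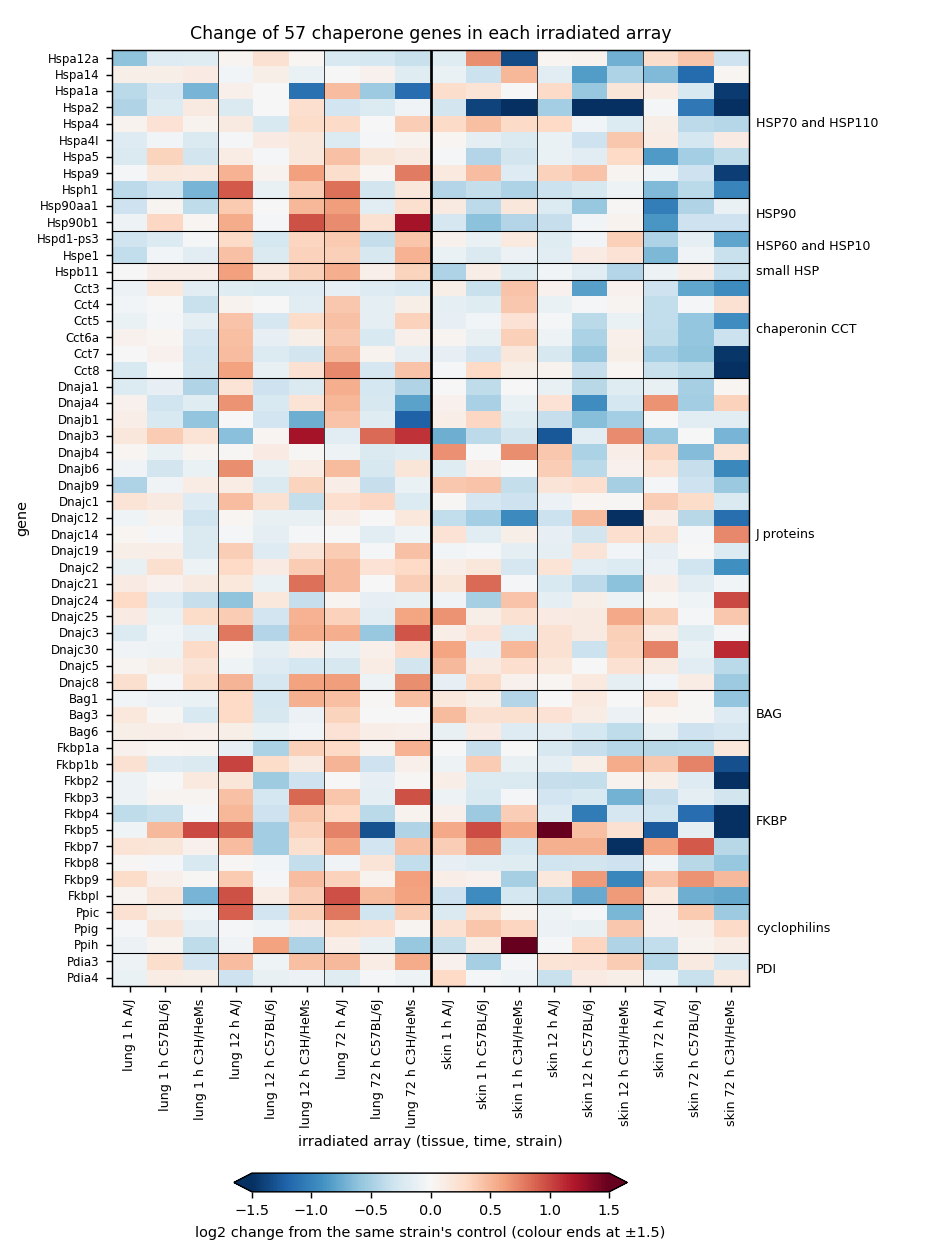
Change of each of the 57 chaperone genes (rows, by family) in each of the 18 irradiated arrays (columns, by tissue, time and strain), as log2 change from the same strain's control, blue below and red above it. The 3 columns of skin at 72 h are mostly blue for HSP70, HSP90 and CCT genes, and the lung columns of A/J and C3H/HeMs at 12 h and 72 h are mostly red.

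In skin at 72 h, 47 of 57 members lay below their control, against 4464 of 8750 features. The chaperonin CCT lay below control in a uniform way, with 6 of 6 measured subunits below control, 5 of them in all 3 strains and at an unadjusted p under 0.05, and a median of -0.65. Cct7 had log2 ratios of -0.69, 0.24 and 0.23 in the controls and -1.20, -0.36 and -1.23 at 72 h. The groups overlap, but each strain was lower than its own control, with differences of -0.51, -0.60 and -1.46 by strain and a mean of -0.86 (SE 0.29), at an adjusted p of 0.664. Cct8 went from -0.22, 0.45 and 0.88 to -0.55, 0.04 and -0.80, a mean of -0.80 (SE 0.32). By strain Cct3 differed by -0.31, -0.78 and -0.94. For Cct5 the values were -0.37, -0.58 and -0.93, and for Cct6a -0.38, -0.58 and -0.32. In each of these 3 the strains differed in size but not in direction. Cct4 stood outside the group at -0.06, and its 2 probes differed in direction. At 1 h the median of the 6 subunits was 0.04, with 1 below control, and at 12 h it was -0.17 with 6 below, 1 of them in all 3 strains.

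The counts rested in part on single arrays. Without the C3H/HeMs array of 72 h, the median of the 6 CCT subunits at 72 h was -0.41, with 6 below control and 0 at an unadjusted p under 0.05. Without the C57BL/6J control the median was -0.54 and 1 subunit passed. Over the whole set, the count of 13 members lower at an unadjusted p under 0.05 became 5 when the C3H/HeMs array of 72 h was left out, 4 when the control of C57BL/6J was and 8 when that of A/J was. It was 12 with ratios of exactly 0 taken as missing. Strain medians over the members were -0.04, -0.20 and -0.32. The CCT direction was the same when arrays were scaled by quantiles, with a CCT median of -0.67, and without centring, at -0.61. Under those settings 46 and 43 members lay below control, against 4637 and 4014 of 8750 features.

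**Figure D3:**
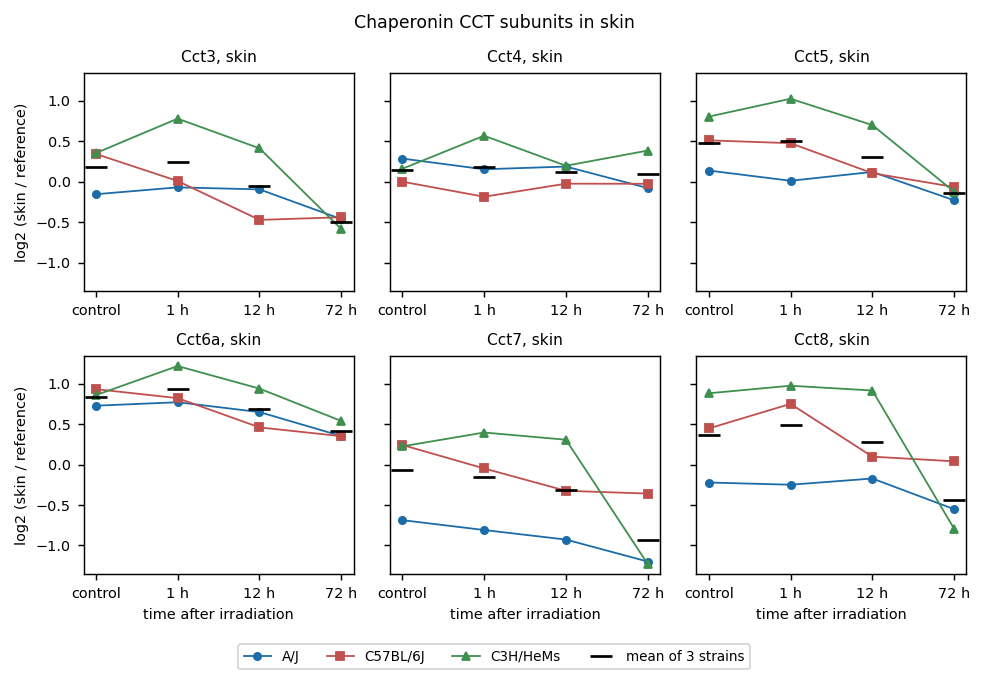
Log2 ratio of skin over reference of the 6 measured CCT subunits (panels) in controls and at 1 h, 12 h and 72 h after irradiation, with 1 line per strain and a black bar at the mean of 3 strains. At 72 h all 3 strains lie below their control for each subunit but Cct4.

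Among HSP70 and HSP110 genes 8 of 9 lay below control in skin at 72 h, 4 in all 3 strains and 5 at an unadjusted p under 0.05, with a median of -0.58 that was -0.29 without the C3H/HeMs array at 72 h. Hspa2, whose values follow below, is 1 of the 5 and not of the 4 found with ratios of exactly 0 taken as missing. Hsph1, the stress-inducible HSP110, had the smallest p of the set. Its ratios were -0.80, -0.54 and -0.16 in controls and -1.46, -0.94 and -1.15 at 72 h, a difference of -0.68 (SE 0.20) and an adjusted p of 0.65. The groups did not overlap, and each strain was lower than its control. Hspa5 (BiP) differed by -0.85, -0.51 and -0.38 by strain, a mean of -0.58 (SE 0.21). Mitochondrial Hspa9 was -0.60 (SE 0.26), most of it from C3H/HeMs at -1.41. Hspa14 averaged -0.60 (SE 0.26) but was 0.03 in C3H/HeMs, and Hspa1a was 0.11, -0.23 and -1.44 by strain. Hspa4 averaged -0.25, Hspa4l -0.01 and Hspa12a, a distant relative, 0.12.

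The HSP90 genes lay below control in all 3 strains. Hsp90aa1, the inducible cytosolic form, had differences of -1.03, -0.45 and -0.10 by strain and Hsp90b1 of -0.88, -0.31 and -0.31 by strain. Their means were -0.53 (SE 0.25) and -0.50 (SE 0.22), and the A/J pool was furthest below its control in both. Hspe1, the mitochondrial co-chaperonin HSP10, was -0.35 and Hspd1-ps3 -0.47, both below control in each strain. Fkbp4, which serves steroid receptors bound to HSP90, had ratios of -1.05, 0.00 and -0.19 in controls and -1.35, -1.15 and -1.75 at 72 h. The 2 groups did not overlap, and the mean difference was -1.004 (SE 0.31), smallest in A/J, at an adjusted p of 0.65. Outside the set, the HSP70 to HSP90 adaptor Stip1 differed by -0.77 (SE 0.28) and the HSP70 cofactor St13 by -0.44, each lower in all 3 strains. Pfdn4, a subunit of the prefoldin that passes clients to CCT, was -0.26 and the HSP90 cochaperone Chordc1 0.32, with strains that disagreed. Of 15 measured factors and co-chaperones outside the set, 5 were lower and 1 higher in all 3 strains, with a median of -0.20.

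In the remaining families most values were smaller. J proteins lay below control in 13 of 19 cases with a median of -0.11, 5 lower in all 3 strains and 0 higher, among them Dnajc2 (-0.44), Dnajb9 (-0.29) and Dnajb1 (-0.11). Dnajc30, a mitochondrial J protein, was the 1 member above control at an unadjusted p under 0.05, with 0.75, -0.10 and 1.11 by strain. Fkbp9 was 0.53 (SE 0.30) and above control in each strain, and Fkbp8, of the outer mitochondrial membrane, was -0.35 and below it. Fkbp1a averaged -0.22 and Dnaja1 -0.20. The BAG genes ran from -0.22 to -0.05, Bag1 at -0.12, Bag3 at -0.05 and Bag6 at -0.22, and the disulfide isomerases Pdia3 and Pdia4 were at -0.18 and -0.09.

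Markers of other cell types in skin differed from control at the same time. At 72 h the 4 epidermal markers had a median change of 0.89, 3 of them higher in all 3 strains, and the 4 hair follicle markers had -1.26, 2 of them lower in all 3 strains. The 13 skeletal muscle markers had median changes of 0.50, -0.25 and -2.46 by strain, and their median level in a skin array ran from -1.33 to 1.88, with 1 to 12 of 13 above the reference. The part of these shifts in the chaperone values was not tested. Fewer cells of a type and less RNA per cell cannot be told apart in bulk tissue.

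Hspa2 had the largest difference from control of any member in skin at 1 h and 12 h, but the size rested on 1 control value. Its log2 ratios were -1.85, -1.26 and 0.13 in controls, -2.12, -2.65 and -2.06 at 1 h, -2.36, -3.40 and -2.44 at 12 h and -1.87, -2.33 and -2.14 at 72 h. The control of C3H/HeMs, 0.13, is a deposited ratio of exactly 0 on the single probe of this gene. All 9 irradiated arrays lay below the control of their strain, counting that value. The differences were -1.29 (SE 0.39), -1.74 (SE 0.39) and -1.12 (SE 0.39), and the adjusted p at 12 h was 0.294, the smallest of any member after irradiation in skin. With that control taken as missing they were -0.81 (SE 0.32), -1.26 (SE 0.32) and -0.64 (SE 0.32), with an adjusted p of 0.459 at 12 h, and Fkbp5 then had the largest difference at 72 h. By strain the values of 12 h were -0.51, -2.14 and -2.57, of which the last uses the 0. Muscle markers differed between the same arrays, with medians of -0.22, 0.10 and -0.42 at 1 h and 0.82, -0.36 and -2.66 at 12 h. Their part in the Hspa2 values was not tested. In lung Hspa2 had a control mean of -3.34 ± 0.29 and differed by -0.17, 0.01 and -0.18.

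Fkbp5 lay above its control early and below it late in skin. This gene encodes an HSP90-bound immunophilin that is induced by glucocorticoids and dampens their receptor. It had 0.46, -0.49 and 0.05 in controls, 1.03, 0.49 and 0.63 at 1 h, 2.04, -0.04 and 0.28 at 12 h and -0.79, -0.63 and -1.80 at 72 h. All 3 strains were above control at 1 h and 12 h and all 3 below at 72 h, with means of 0.71 (SE 0.40), 0.75 (SE 0.40) and -1.08 (SE 0.40), and adjusted p-values of at least 0.664. The contrast of 72 h with 1 h, which uses no control array, was -1.79 (SE 0.40, adjusted p = 0.353), and that with 12 h was -1.84. In lung the strains disagreed at each time, with means of 0.47, 0.23 and -0.34, and the later 2 were -0.64 and -1.21 with the block of 4 arrays.

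Of 13 measured genes known to be induced by glucocorticoids, Fkbp5 among them, the median in skin was 0.47 at 1 h, 0.57 at 12 h and -0.17 at 72 h. At 1 h 6 were higher and 1 lower in all 3 strains, at 12 h 5 and 0, and at 72 h 2 and 5. None was called in skin by adjusted p. Several are also induced by damage or inflammation, among them Cdkn1a (0.82, 1.51 and 0.92), the metallothioneins Mt1 and Mt2 (1.10 and 1.13 at 1 h), Lcn2 (2.24 at 12 h), Gadd45b (0.69 at 12 h) and Nfkbia (0.59 at 1 h and -0.84 at 72 h). Tsc22d3, a direct target of the receptor, was -0.81 at 72 h. In lung the list's medians were 0.12, 0.19 and -0.34, the later 2 being -0.21 and -0.76 with the block of 4 arrays. Cdkn1a rose at each time, by 2.23, 2.71 and 2.54 (adjusted p = 0.0133, 0.00158 and 0.00346 in limma). With the block the difference at 72 h was 2.16, at an adjusted p of 0.0954, which missed the threshold. It was the 1 gene of the list called there. Tsc22d3 was -0.74 and Nfkbia -0.41 in lung at 72 h, or -1.90 and -0.78 with the block.

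**Figure D4:**
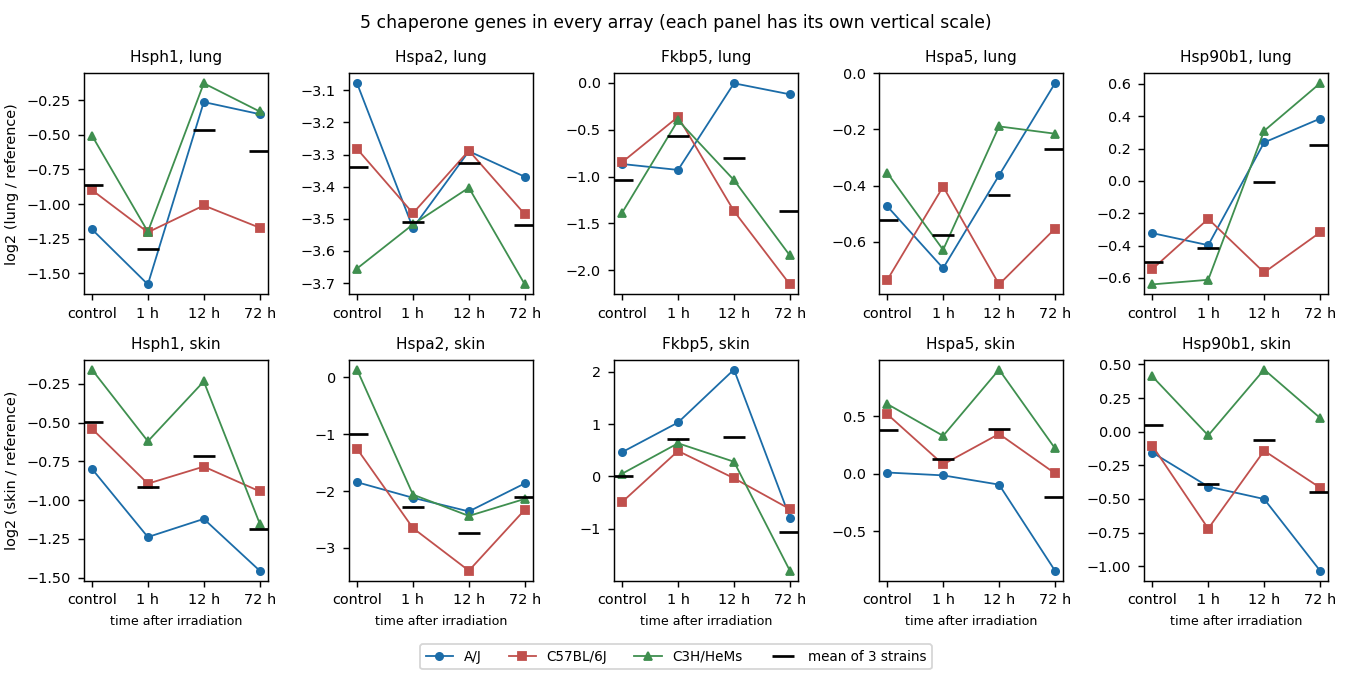
Log2 ratio of tissue over reference of Hsph1, Hspa2, Fkbp5, Hspa5 and Hsp90b1 (columns) in lung (upper row) and skin (lower row), in controls and at 1 h, 12 h and 72 h, with 1 line per strain and a black bar at the mean of 3 strains. Each panel has its own vertical scale. Hspa2 in skin lies below control in all 9 irradiated arrays, its C3H/HeMs control being a deposited ratio of exactly 0, Fkbp5 in skin lies above control at 1 h and 12 h and below it at 72 h, and Hsp90b1 at 72 h lies above control in lung and below it in skin.

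At the earlier times in skin few other members stood out. At 1 h Hsph1 had differences of -0.44, -0.35 and -0.46 by strain, and Fkbpl, Dnajc12, Dnajb3 and Hsp90b1 lay below control in each strain with means of -0.51, -0.61, -0.47 and -0.44. Dnajb4, a cytosolic J protein, lay above control by 0.69, 0.00 and 0.69 by strain, though 1 of its 2 probes gave 0.83 and the other 0.10. At 12 h the second member below control at an unadjusted p under 0.05, beside Hspa2, was Dnajb1 at -0.50 (SE 0.19), or -0.35, -0.64 and -0.51 by strain. Fkbp4, Hspa14, Dnajc21, Fkbp3 and Fkbp1a were lower in all 3 strains at 12 h, with means of -0.50, -0.49, -0.41, -0.41 and -0.34. Over all 9 irradiated skin arrays 4 members lay below their control without exception, Hspa2, Hsph1, Fkbp3 and Fkbp8, and 0 above, against 2.42% and 1.27% of all features. For Hspa2 this counts the control with a ratio of exactly 0.

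The classical heat shock genes gave small differences from control in skin at 1 h. Hspa1a had -0.36, 0.32 and 0.52 in controls and -0.10, 0.52 and 0.52 at 1 h, a difference of 0.15 (SE 0.34), and was -0.04 and -0.52 later. Hsp90aa1 was -0.03, Dnajb1 0.08, Dnaja1 -0.13 and Hspe1 -0.14 at 1 h. Bag3 and Hspa4 lay above control in each strain at 1 h, with 0.31 and 0.34. For 15 measured targets of heat shock factor 1, 10 of them members and the others also in the list of co-chaperones, the median was -0.06 at 1 h, -0.19 at 12 h and -0.25 at 72 h, with 7 lower and 0 higher in all 3 strains at both later times. Cryab, a small heat shock protein of muscle and lens, was 0.62 at 12 h with strains that disagreed.

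In lung at 1 h most of the same targets lay below control. Of the 15, 9 were lower and 1 was higher in all 3 strains, with a median of -0.19 and 14 below control. Strain medians were -0.20, -0.10 and -0.32. Among all features 14.9% were lower and 14.6% higher in all 3 strains, and 4547 of 8750 lay below control. Of the 15 targets 0 had an unadjusted p under 0.05 in the main fit, though Hsph1 did with the lung arrays lying apart as a block. Counts of 7 and 8 lower in all 3 strains were found with quantile scaling and without centring. Hsph1 had -1.18, -0.90 and -0.51 in controls and -1.58, -1.20 and -1.20 at 1 h, a difference of -0.47 (SE 0.25). Hspa1a had -2.08, -1.74 and -0.52 in controls and -2.49, -1.99 and -1.21 at 1 h, a difference of -0.45 (SE 0.30). For Hsph1 the groups were narrowly separate, while for Hspa1a they overlap and the agreement lies within each strain. Without the C57BL/6J array at 1 h the Hsph1 difference was -0.72, and without the C3H/HeMs control that of Hspa1a was -0.16. Dnaja1 (-0.26), Fkbp4 (-0.24), Hspe1 (-0.19), Hspa4l (-0.15), Stip1 (-0.21), Cacybp (-0.15) and Ahsa1 (-0.15) were the others lower in each strain, and Hspa4 was the 1 higher, at 0.11. Dnajb1 and Hsp90aa1 averaged -0.24 and -0.22 with strains that disagreed. At 12 h and 72 h in lung the median of the 15 targets was 0.09 and 0.01. With the lung arrays lying apart as a block it was -0.23 and -0.23, so no direction can be given at these times.

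**Figure D5:**
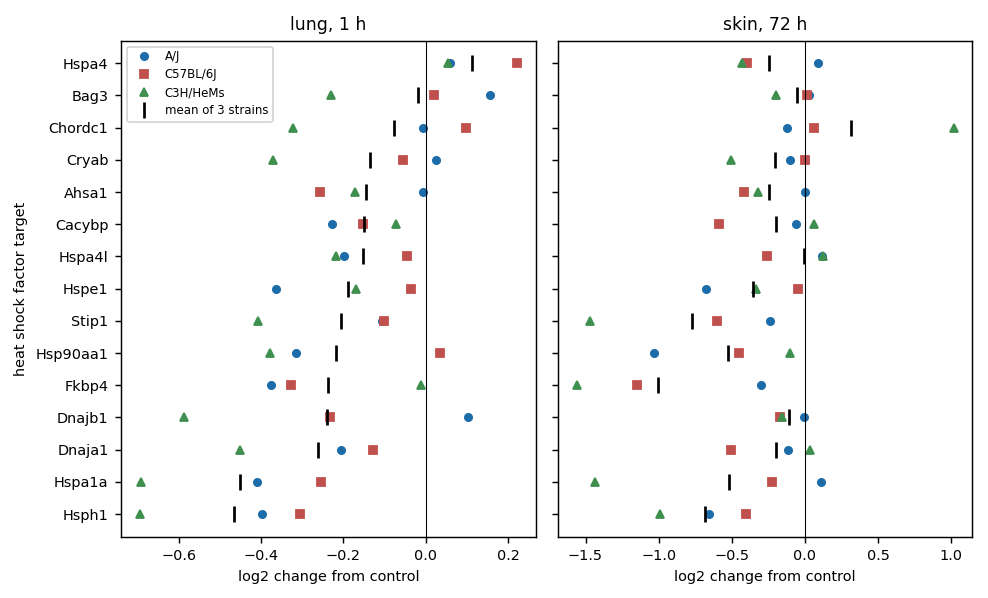
Log2 change from control of the 15 measured heat shock factor targets in lung at 1 h (left) and skin at 72 h (right), with 1 symbol per strain and a black bar at the mean of 3 strains, ordered by the mean in lung at 1 h. In lung 14 means lie below 0, with Hsph1 and Hspa1a lowest, and the horizontal scales of the panels differ.

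Outside those targets, Hspa12a was the 1 member with an unadjusted p under 0.05 in lung at 1 h, at -0.33 (SE 0.14) or -0.61, -0.19 and -0.18 by strain. Dnajb3 was above control in each strain at 0.25 and Hspd1-ps3 below it at -0.18. CCT subunits lay between -0.17 and -0.03. The co-chaperones outside the set had a median of -0.08, with 2 higher and 6 lower in all 3 strains. Among these were Cryaa (0.25) and St13 (-0.22), and also Stip1, Cacybp and Ahsa1, already counted among the targets.

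At 12 h and 72 h in lung the values depended on which arrays were set against each other. Strain medians of the members were 0.30, -0.11 and 0.21 at 12 h, then 0.39, -0.12 and 0.14 at 72 h. The 4 arrays with a median above 0 are the 4 that lay away from the rest. With these arrays treated as a block, the medians were -0.17 and -0.08, so no direction can be given for the family as a whole. Hsp90b1 had -0.32, -0.55 and -0.64 in controls and 0.39, -0.32 and 0.60 at 72 h, with differences of 0.71, 0.23 and 1.24 by strain, a mean of 0.73 (SE 0.25) and an adjusted p of 0.354. Each irradiated array lay above its control, though the C57BL/6J array was level with the A/J control. With these 4 arrays treated as a block the difference was 0.11, and without those arrays 0.12. Fkbpl, an FKBP-like partner of HSP90, was 0.96, 0.47 and 0.61 by strain at 72 h and 0.48 at 12 h, or 0.22 and 0.02 with that block. Pdia3, which folds glycoproteins, was 0.39, Hspa9 0.36, Fkbp9 0.34, Dnajc2 0.33, Bag1 0.31 and Hspa5 0.25 at 72 h, each above control in the 3 strains. With the block these 6 were -0.07, -0.01, 0.07, 0.09, -0.06 and -0.03, so 4 changed sign and the other 2 were near 0. Dnajc8, of the spliceosome, was 0.42 but below control in C57BL/6J, and -0.02 with the block.

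At 12 h in lung Fkbp1b, which binds the ryanodine receptor, was 1.02, 0.27 and 0.14 by strain, and Hspb11 0.61, 0.14 and 0.35 by strain. The Fkbp1b mean was 0.48, or 0.24 with the block. Hspb11 was the 1 member above control in all 9 irradiated lung arrays, against 2.27% of all features, and 0 members lay below control in all 9, against 0.754%. Its differences were 0.07, 0.37 and 0.32, of which the later 2 were 0.12 and 0.07 with the block. Hspa9 and Dnajc2 lay above control in each strain at 12 h at 0.40 and 0.27, but at 0.03 and 0.03 with the block. Dnajb1, Cct3 and Dnajc5 lay below control in each strain at -0.34, -0.19 and -0.18, or -0.25, -0.30 and -0.05 with it. Hspa1a was 0.08, 0.00 and -1.12 by strain at 12 h and 0.46, -0.55 and -1.15 by strain at 72 h, so the strains disagreed. Ahsa1, an HSP90 activator outside the set, lay below control in each strain at 12 h and 72 h, at -0.29 and -0.38, or -0.25 and -0.34 with the block.

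Other genes of the endoplasmic reticulum gave little uniform movement. Of 19 measured genes of folding and the unfolded protein response outside the set, 0 were called in any comparison. Lung medians were -0.02, 0.10 and 0.13 over time (with the block -0.08 and -0.04 at the later times), and those of skin -0.05, -0.01 and -0.26, with 6 lower and 1 higher in all 3 strains of skin at 72 h. Atf4, the stress transcription factor, was 0.65 (SE 0.23) in skin at 1 h, above control in each strain, and -0.42 at 72 h, while in lung it was 0.29 and 0.43 at the same times, or -0.04 at 72 h with the block. Ppp1r15a, its target, was 0.58 and 0.99 in skin and 0.45 in lung at 1 h. Uggt1, which marks misfolded glycoproteins, was 0.33 and 0.27 in lung at 12 h and 72 h (0.38 and 0.33 with the block), and Sel1l 0.39 and Chac1 -0.38 at 72 h (0.41 and -0.47). Dnajc3, which shares the promoter element shown above with Hspa5 and Hsp90b1, was 0.54, -0.57 and 0.95 by strain in lung at 72 h and averaged -0.03 in skin. The values above 0 in lung come from arrays of the 4 lying apart, and with the block Dnajc3 was -0.55 at 12 h and -0.54 at 72 h (adjusted p = 0.808 and 0.881 in limma). Dnajb9, another J protein of the compartment, was -0.12 in lung, or -0.42 with the block, and -0.29 in skin.

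For mitochondria, 8 genes of protein import and quality control were measured outside the set. In skin at 72 h 5 were lower in all 3 strains and 0 higher, with a median of -0.38, and strain medians of -0.13, -0.24 and -0.95. The prohibitins Phb and Phb2 were -0.57 and -0.64, the protease Lonp1 -0.54 and the import receptor Tomm22 -0.34, and the mitochondrial members Hspa9 and Hspe1 given above lay in the same direction. In lung the medians were 0.03, 0.07 and 0.12, the later 2 being -0.03 and -0.01 with the block. Of 9 collagens and collagen-modifying enzymes, which mature with the help of secretory chaperones, the medians in skin were -0.10, -0.22 and 0.14. Col1a1 and Col1a2 were -1.41 and -1.15 at 12 h, lower in each strain, and Plod3 was 0.69. In lung the collagen list had medians of -0.03, 0.18 and 0.08, the later 2 being -0.10 and -0.10 with the block. No gene of the mitochondrial or collagen lists was called.

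The difference between skin and lung responses was tested in 1 fit over all 24 arrays, between which dose, site and dye differed too. By adjusted p, 0 members and 0% of all features were called at each time. At 72 h 16 members were lower in skin than in lung at an unadjusted p under 0.05 and 0 were higher, against 6.99% of all features lower. At 12 h 4 were lower (5.12% of features) and at 1 h 1 (1.01%). The median difference at 72 h was -0.42 for the members and -0.06 for all features. Hsp90b1 gave -1.23 (SE 0.33), Hspa5 -0.84, Dnajc2 -0.77, Cct5 -0.84 and Hspa9 -0.95, all with an adjusted p of 0.367. With the 4 lung arrays lying apart as a block, members lower at that p numbered 0 at 72 h, 1 at 12 h and 1 at 1 h. Among all features 0.88%, 1.35% and 1.3% were lower in the same order. Dnajc3 at 12 h was the 1 member higher at that p, at 0.79 (SE 0.27). The median difference at 72 h was -0.11. Hsp90b1 was then -0.61, Hspa5 -0.56, Dnajc2 -0.53, Cct5 -0.43 and Hspa9 -0.59. In 5 members at 72 h all 3 strains lay on 1 side of control in lung and on the other in skin, against 5.05% of features. These were Hsp90b1, Hspa5, Hspa9, Dnajc2 and Bag6, each above control in lung and below it in skin. With the block their lung values were 0.11, -0.03, -0.01, 0.09 and 0.07, so the opposite direction was lost for Hspa5 and Hspa9. For Hsp90b1, Dnajc2 and Bag6 the lung value was then smaller than its SE (0.19, 0.15 and 0.13), so no direction in lung can be given. Opposite sides were also seen for 1 member at 1 h, Dnajb3 (2.87% of features), and 1 at 12 h, Hspb11 (2.99%). Hspa2 had the smallest p at 1 h and 12 h, with differences of -1.12 and -1.75 and adjusted p-values of 1 and 0.53. With its ratio of exactly 0 taken as missing they were -0.63 and -1.27, and Dnajb4 (0.47) had the smallest p at 1 h. Next at 12 h was Hspb11, at -0.58. With the block of 4 lung arrays Hspb11 was -0.33 and had rank 9 among the members by p, and Dnajc3 was next after Hspa2.

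Contrasts between irradiated times, added after the values were seen, use no control array. In skin from 1 h to 72 h 12 members were lower at an unadjusted p under 0.05 and 0 higher, against 3.75% of all features lower, and 0 were called by adjusted p. The 12 held 5 CCT subunits, with Cct8 at -0.93 and Cct7 at -0.78, and Fkbp4, Fkbp5, Hspa4, Hspa9, Hspa14, Dnajb4 and Dnajc5. From 12 h to 72 h 5 were lower (3.03% of features), Fkbp5, Hspa9, Hspa5, Hsph1 and Cct8. From 1 h to 12 h 2 were lower (3.23%), Dnajc21 at -0.74 and Dnajb1 at -0.58. In lung 6 members were higher at 12 h than at 1 h (9.81% of features) and 4 at 72 h (6.56%). Hsph1 led at 12 h with 0.86 (SE 0.25, adjusted p = 0.196 in limma) and was 0.71 at 72 h, and Fkbpl led at 72 h with 0.84. With the 4 arrays lying apart as a block these 3 values were 0.27, 0.12 and 0.38. Members higher were then 1 at 12 h and 0 at 72 h, and members lower 3 and 2. No share of all features is given for these counts, so they cannot be set against one. Under the block Fkbp7 had the smallest p at both times, at -0.66 and -0.48.

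Strains differed in 1 chaperone gene of lung after adjustment, a call that was lost when the 4 arrays lying apart were a block. Dnajc5, the cysteine string protein of secretory vesicles, had means over the 4 lung arrays of a strain of 0.37 ± 0.12 (SD), -0.19 ± 0.14 and 0.42 ± 0.23 (F test in limma, adjusted p = 0.0431). All 4 C57BL/6J arrays lay below the 8 others. The adjusted p was 0.0927 with the 4 arrays as a block and 0.0908 without them, and 0 members were called under either. Among all features 2.95% were called in lung, and at an unadjusted p under 0.05 it was 9 members and 23.7% of features. Dnajb4 was next with 0.08 ± 0.05, 0.54 ± 0.14 and 0.22 ± 0.10 in the same order (adjusted p = 0.0723), highest in C57BL/6J. With the 4 arrays as a block Dnajb4 had an adjusted p of 0.197 in the F test, and Dnajc3 had the smallest of the members, 0.0768. Dnajc2 and Hspa4 had their lowest means in C57BL/6J, at -1.07 ± 0.11 and -1.24 ± 0.18, with an unadjusted p of 0.129 and 0.165 under the block. Dnajb6 was also lowest there over the 4 arrays, but in controls it had -0.84, -0.73 and -0.39, with A/J below C57BL/6J.

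In skin 0 members were called between strains, against 0.377% of features, and 18 members had an unadjusted p under 0.05, against 19.1% of features. The 5 with the smallest p, Hspe1, Pdia3, Hspa5, Hspd1-ps3 and Hsp90b1, had their lowest mean in A/J. Hspe1 had -0.63 ± 0.30, -0.01 ± 0.14 and 0.17 ± 0.23 (adjusted p = 0.111). Pdia3 had -0.36 ± 0.27, 0.25 ± 0.32 and 0.55 ± 0.26, and Hspa5 -0.23 ± 0.41, 0.24 ± 0.24 and 0.52 ± 0.31. Hspd1-ps3 had -0.93 ± 0.24 in A/J against -0.09 ± 0.50 in C3H/HeMs, and Hsp90b1 -0.52 ± 0.37 against 0.24 ± 0.24. No member showed an interaction of strain with irradiation after adjustment, against 0.0229% of features in lung and 0% in skin. The smallest p-values fell to Dnajb1, Dnajc25, Dnajc1, Hspa1a and Dnajc8 in lung and, after Hspa2 with its control ratio of exactly 0, to Fkbp7, Hspa12a, Dnajc12 and Dnaja4 in skin. For Dnajb1 in lung at 72 h the strains gave 0.43, -0.18 and -1.21, and for Fkbp7 in skin at 12 h 0.53, 0.53 and -1.86 by strain. Dnajc25 (0.35, -0.15 and 0.59 by strain) and Dnajc1 (0.25, 0.31 and -0.20 by strain) in lung at 72 h were next.

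The pattern of Hspa1a was compared with that of every named feature by Pearson's r of the change over the 9 irradiated arrays of a tissue, as a description. The arrays of a strain share a control, so the 9 points are not independent, and 4 of the lung points are the arrays lying apart. In lung the closest were Hand1 (0.96), Macc1 (0.95), Ksr1 (0.95), Spock1 (0.95) and Syne4 (0.95), and among the members Dnajb1 (0.87), Dnajc1 (0.81) and Ppih (0.78). In skin the closest were Prr3 (0.97), Cdc42se1 (0.96), Clic1 (0.95), Ece1 (0.95) and Wdr1 (0.95), and among the members Cct8 (0.93), Dnajb6 (0.91) and Fkbp2 (0.90). Hspa1a itself was lowest against control in the C3H/HeMs arrays at 72 h, at -1.15 in lung and -1.44 in skin. Both of its probes gave the same direction in lung at each time, with -0.48 and -0.42 at 1 h, but their control levels in skin were -0.40 and 0.72.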

How the data were processed

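Per the submitters' processing notes and labels, the arrays were read with Agilent Feature Extraction, and the authors deposited 1 log10 ratio of Cy5 over Cy3 per probe. The values, limited at ±2, were multiplied by 3.32 to give log2 ratios. Lung RNA was Cy3, so its sign was turned. Each array was centred on its median and probes of a single symbol were averaged, leaving 8750 features. The members and gene lists were chosen with earlier results of these data known.

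Each tissue was fitted in limma 3.58.1 (R 4.3.3) with group and strain, which is the replicate number, and p-values were adjusted over all features by Benjamini-Hochberg. The fits were checked on simulated data, in which 65% to 70% of 2-fold changes were recovered in lung and 26% to 34% in skin. Of 4-fold changes 97% to 98% were recovered in lung and 90% to 94% in skin. As a check of the pairing, deviations of arrays of 1 strain correlated at -0.05 to 0.71 in lung and -0.05 to 0.68 in skin. Members were named by smallest p and by size among those with 1 direction in 3 strains. Alternatives covered scaling, centring, probes, filters, the replicate block and arrays left out and, added after the values were seen, ratios of exactly 0 as missing and the block of 4 lung arrays. The number of arrays limits the precision, and depth does not apply.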

Additional observations from a re-analysis of the deposited data

Results flagged for a closer look

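In 7 members all 3 strains lay on 1 side of their control in lung and on the opposite side in skin, each higher in lung and lower in skin. At 1 h this was Dnajb3, with a difference (skin response minus lung response) of -0.72 and an adjusted p of 1.00 in limma. At 12 h it was Hspb11, at -0.58 (adjusted p = 0.564). At 72 h it was Hsp90b1 at -1.23, Hspa9 at -0.95, Hspa5 at -0.84, Dnajc2 at -0.77 and Bag6 at -0.35, with adjusted p-values of 0.367 for the first 4 and 0.413 for Bag6. The difference was tested for each and passed the threshold for none. Members on opposite sides thus numbered 1, 1 and 5 of 57 at 1 h, 12 h and 72 h. Among all features the shares were 2.87%, 2.99% and 5.05%. At 1 h and 12 h the members did not exceed the share of all features. With the 4 lung arrays that lay apart treated as a block, the lung differences at 72 h were 0.11 for Hsp90b1, -0.01 for Hspa9, -0.03 for Hspa5, 0.09 for Dnajc2 and 0.07 for Bag6, so Hspa9 and Hspa5 no longer lay above control in lung. Those of Hsp90b1, Dnajc2 and Bag6 were smaller than their SE (0.19, 0.15 and 0.13). Tissue, dose and dye cannot be told apart in these values.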

How the results depend on the processing

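No member was called by adjusted p under any alternative tried for the irradiation comparisons. In lung at 12 h, where 4 arrays lay away from the rest, the median member change was -0.173 with those 4 arrays treated as a block and -0.161 without them, and members below 0 numbered 41 and 44. At 72 h they numbered 43 and 39. Leaving out arrays or strains moved the median in lung at 1 h between -0.137 and 0.0235 and in skin at 1 h between -0.0603 and 0.0259. The count of members lower at an unadjusted p under 0.05 in skin at 72 h was 5 with no replicate block, 8 with only the groups compared, and 3 to 12 when arrays or strains were left out. Quantile scaling gave 1 member, Cct7, past 1.5-fold in all 3 strains in skin at 72 h. The cause of these shifts was not tested. The 32 members higher in skin than in lung ranged from 25 to 34 over the alternatives run for that comparison. Between strains in lung 1 member was called under quantile scaling and with the median of probes, but 0 were with the 4 arrays as a block or left out. With that block, members lower in skin than in lung at 72 h at an unadjusted p under 0.05 went from 16 to 0. With ratios of exactly 0 taken as missing, the Hspa2 difference in skin at 72 h went from -1.12 to -0.64. The deposited ratios carry no signal over background, so dim probes could not be set aside.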
